A study of Oryza sativa with 6 samples.

Results

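Strigolactone synthesis and signalling genes of rice (Oryza sativa) were examined in RNA sequencing counts from seedling root tips of the wild type J10 and of lad, a mutant for which the labels give sr1 as a second name. The genes were chosen by locus: D27, D17 and D10 for synthesis, and D14, D3 and D53 for perception and signalling. Of these 6 loci, 5 were found among the 56962 genes of the count table, and D27 (LOC_Os11g37650) was not analysed here. Both genotypes grew at 25°C, and the last 0.5 cm of the root was taken after 6 days, in 3 libraries per genotype. The labels do not name the locus mutated in lad, the number of lines behind it, or whether roots of several seedlings were pooled. By the title of the series, the work concerns SHORT-ROOT 1, division of root cells and tracheary elements, which carry water in the xylem. The comparison asks which transcripts differ in level between the mutant and the wild type tips. Nothing in the labels says that the 3 libraries of a genotype came from separate cultures, so p-values measure only the spread between these libraries, which may be technical.

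Strigolactones are carotenoid-derived hormones that restrain shoot branching, shape root growth and, when released from roots, attract mycorrhizal fungi and trigger germination of parasitic weeds. In plastids D27 isomerises beta-carotene, and the carotenoid cleavage dioxygenases D17 (also called CCD7) and D10 (CCD8) cut the product in turn to give carlactone, which cytochrome P450 enzymes oxidise further. The hormone is bound and hydrolysed by D14, an alpha/beta hydrolase that acts as the receptor. D14 then joins D3, the F-box subunit of a ubiquitin ligase, and the pair marks the repressor D53 for degradation, so D53 protein and D53 transcript need not move together.

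Libraries held 16405022 to 20693114 counts, and the first principal component held 82.4% of the variance in log2 CPM. Of 22624 genes tested, 10229 (45.2%) differed between the genotypes, with an adjusted p under 0.05. Here and in what follows, an adjusted p comes from edgeR's quasi-likelihood test, with the Benjamini-Hochberg method applied to every gene in the fit. The share called was 24.9% for higher and 20.3% for lower in lad. Both loci taken as root markers were detected, and both were lower in lad. LOC_Os01g63510 was chosen for the quiescent centre of the tip, and LOC_Os02g44310 for root in general. The homeobox locus LOC_Os01g63510 had 13.3 ± 1.69 CPM in J10 and 5.13 ± 1.69 CPM in lad (SD, n = 3; adjusted p = 0.000970), and LOC_Os02g44310 had 1654 ± 353 and 945 ± 204 CPM (adjusted p = 0.00678). The 4 genes described as Rubisco small chains, taken as markers of leaf, summed to 2.35 to 2.88 CPM in J10 and 3.57 to 4.09 CPM in lad. One of them, LOC_Os12g17600, was at 0 in all 6 libraries and LOC_Os12g19381 held 1 count in all. Whether these shifts in markers have a part in the values that follow was not tested. In pieces of whole root tip, fewer cells of a type and less RNA per cell cannot be told apart.

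The signalling genes D14, D3 and D53 rose in lad, by 3.799-fold, 1.679-fold and 1.598-fold. D17 and D10, the synthesis genes, were near the limit of detection and neither passed the test. D17 had a higher and D10 a lower level in lad. The 3 rises among 5 members tested stand against 24.9% of all genes called higher. All 5 members had values that did not overlap between the genotypes, 4 of them higher and D10 lower in lad. Of all tested genes 56.8% did not overlap, 30.2% being higher and 26.6% lower.

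**Figure D1:**
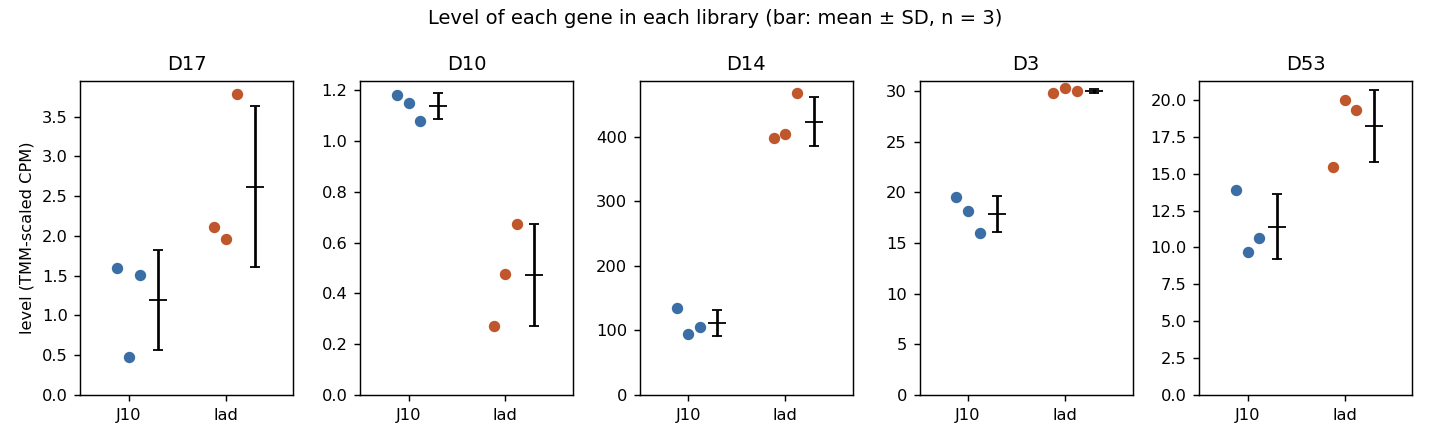
Level of D17, D10, D14, D3 and D53 in each library as TMM-scaled CPM on linear axes from 0, with J10 in blue and lad in orange; bars give the mean ± SD of 3 libraries. D14 stood at 95.2 to 135 CPM in J10 and 398 to 468 CPM in lad, and no gene's genotypes overlap.

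D14 (LOC_Os03g10620, chromosome 3, 5422148 to 5426577, plus strand, no deposited description), the receptor gene, had the highest level of the 5, also per kilobase of gene length. Its level was 135, 95.2 and 105 CPM in J10 replicates 1, 2 and 3, and 398, 405 and 468 CPM in lad replicates 1, 2 and 3. Every lad library stood well above every J10 library. The means were 112 ± 20.5 CPM in J10 and 424 ± 38.4 CPM in lad (SD, n = 3), a log2 change of 1.93 ± 0.15 (SE; adjusted p = 3.75e-06). These values rested on 6376 counts in J10 and 23206 in lad. The change was higher than that of most genes: 8.76% of tested genes had a larger log2 change, and 2.41% had a higher mean CPM. With any 1 library left out the log2 change lay between 1.80 and 2.05.

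D3 (LOC_Os06g06050, chromosome 6, 2780715 to 2785271, plus strand, described as F-box domain) encodes the ubiquitin ligase subunit that works with D14. It measured 19.5, 18.1 and 15.99 CPM in J10 and 29.8, 30.3 and 29.9 CPM in lad. The lad libraries were nearly equal, and all stood above the highest J10 library. Means of 17.9 ± 1.76 and 30.0 ± 0.232 CPM (SD, n = 3) gave a log2 change of 0.75 ± 0.12 (SE; adjusted p = 0.000701). A larger log2 change was found for 20.4% of tested genes.

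D53 (LOC_Os11g01330, chromosome 11, 194176 to 199479, plus strand, no deposited description) encodes the repressor that the receptor complex removes. Its level was 13.9, 9.68 and 10.6 CPM in J10 and 15.4, 19.97 and 19.3 CPM in lad. The genotypes came close to each other, with J10 replicate 1 just under lad replicate 1. Means were 11.4 ± 2.20 and 18.2 ± 2.46 CPM (SD, n = 3), with a log2 change of 0.68 ± 0.18 (SE; adjusted p = 0.0112). Without J10 replicate 3 the log2 change was 0.60 and the call was lost (adjusted p = 0.0595, edgeR quasi-likelihood).

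The D53 value carries a further limit, because the ends of rice chromosomes 11 and 12 are duplicates of each other and reads of near-identical copies cannot be told apart. RefSeq (ASM3414082v1) lists a gene D53-L on chromosome 12, but shares no identifier with the count table. LOC_Os12g01360, a locus near the start of chromosome 12 without a deposited description, had 12.6 ± 2.18 CPM in J10 and 20.1 ± 2.11 CPM in lad (SD, n = 3; log2 change 0.68 ± 0.17 SE, adjusted p = 0.00709). The count of D53 over that of LOC_Os12g01360 lay between 0.856 and 0.943 in all 6 libraries. With the counts of both loci summed, a value that does not depend on how reads were split between them, the log2 change was 0.68 ± 0.15 (SE; adjusted p = 0.00426).

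The synthesis gene D17 (LOC_Os04g46470, chromosome 4, 27567824 to 27570926, plus strand, described as carotenoid oxygenase) had 31, 9 and 28 counts in J10 and 39, 33 and 73 in lad. These are 1.59, 0.471 and 1.51 CPM in J10 against 2.11, 1.96 and 3.78 CPM in lad. J10 replicate 2 was the lowest library and lad replicate 3 the highest, and the others lay near one another. The log2 change was 1.13 ± 0.48 (SE; adjusted p = 0.0744, not called). Without J10 replicate 2 it was 0.73 (adjusted p = 0.194) and without lad replicate 3 it was 0.77 (adjusted p = 0.291, edgeR quasi-likelihood). The end of D17 overlaps LOC_Os04g46480 on the opposite strand over 593 bases, and whether strand was used in counting is not stated. LOC_Os04g46480 had more counts than D17 in every library and rose from 5.87 ± 2.22 to 10.3 ± 1.67 CPM (SD, n = 3; adjusted p = 0.0298). That call was lost without J10 replicate 2 or 3 or without lad replicate 1 or 3 (adjusted p up to 0.110, edgeR quasi-likelihood). How far reads of LOC_Os04g46480 enter the D17 value was not tested.

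D10 (LOC_Os01g54270, chromosome 1, 31220321 to 31228566, minus strand), which encodes the dioxygenase after D17, had 23, 22 and 20 counts in J10 and 5, 8 and 13 in lad. Its level was 1.18, 1.15 and 1.08 CPM in J10 and 0.270, 0.476 and 0.673 CPM in lad. The J10 libraries were nearly equal and all stood above the lad libraries. The log2 change was -1.25 ± 0.47 (SE; adjusted p = 0.0512), just outside the threshold, on 65 counts in J10 and 26 in lad. It passed with upper-quartile factors (-1.31, adjusted p = 0.0400), DESeq2's size factors (adjusted p = 0.0491) and a stricter filter (adjusted p = 0.0424, edgeR quasi-likelihood). It did not pass with library totals (-1.16, adjusted p = 0.0681), no filter (0.0993), the replicate block (0.0811) or any 1 library left out (0.0529 to 0.180), nor in DESeq2's Wald test (0.0833). D10 met the stricter filter, 1 CPM in 3 libraries, only through its J10 libraries. Its lad counts alone would not have met the filter of the main fit either. The fits with upper-quartile factors and DESeq2's size factors used that same filter, so none of these passes adds independent evidence of a fall. It is described as carotenoid oxygenase, but the deposited family column gives RVT_1, a reverse transcriptase domain, where it gives RPE65 for D17. The span counted as D10 may therefore hold more than the dioxygenase gene, and its counts are uncertain to that extent.

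**Figure D2:**
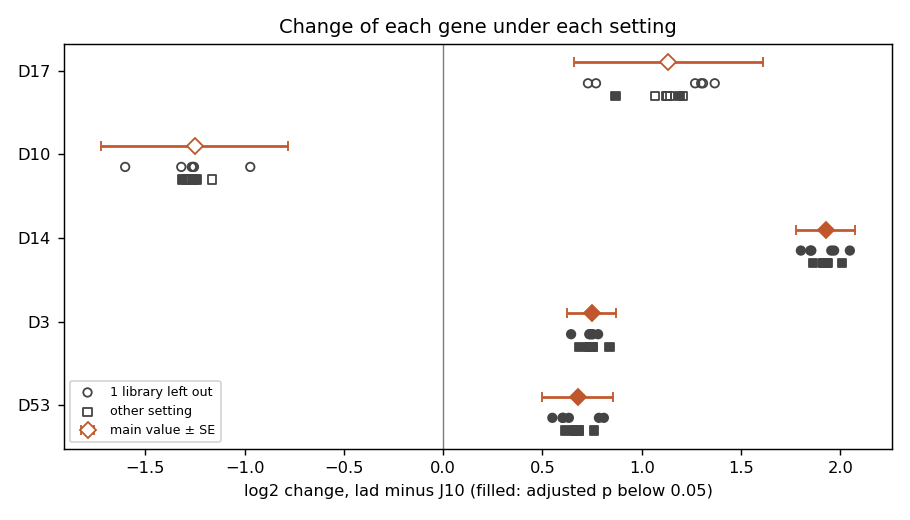
Log2 change (lad minus J10) of each gene: diamonds give the reported value ± SE, circles the value with 1 library left out and squares the value under another setting; filled symbols have an adjusted p below 0.05. D14 stays between 1.80 and 2.05 and D3 between 0.64 and 0.84, while the symbols of D17 and D10 are mostly open.

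Set per kilobase of the deposited gene length, the level of D14 exceeded those of the other genes. In J10 it was 47.7 ± 8.78 CPM per kilobase, followed by D3 with 4.65 ± 0.458, D53 with 2.84 ± 0.548, D17 with 0.478 ± 0.251 and D10 with 0.473 ± 0.0217 (SD, n = 3). The J10 values of D17 and D10 overlapped, and the other neighbours in this order did not. In lad the order was the same, at 181 ± 16.4 CPM per kilobase for D14, 7.82 ± 0.0605 for D3, 4.54 ± 0.613 for D53, 1.05 ± 0.405 for D17 and 0.197 ± 0.0837 for D10 (SD, n = 3). There no neighbours overlapped, D17 and D10 included.

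**Figure D3:**
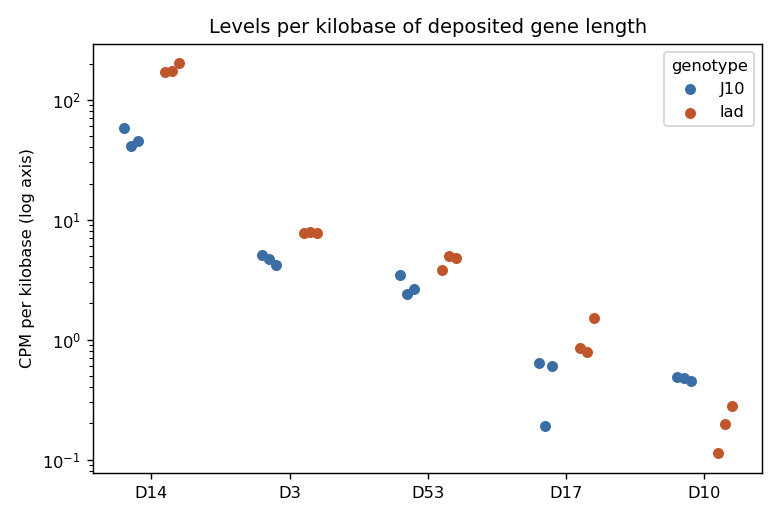
CPM per kilobase of deposited gene length on a log axis, with 1 point per library, for the genes in order of their J10 level. D14 lies above all others in both genotypes, and D17 and D10 overlap in J10 and separate in lad.

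Ratios between genes of 1 library do not depend on how libraries are scaled. The level of the receptor gene D14 relative to either of its partners was higher in every lad library than in any J10 library. Its level per kilobase was 8.64 to 11.3 times that of D3 in J10 and 21.9 to 25.7 times in lad, a log2 difference of 1.18 ± 0.14 (SE). Against D53 it was 16.67 to 16.95 times in J10 and 34.9 to 44.4 times in lad, a log2 difference of 1.25 ± 0.10 (SE). D53 over D3 overlapped between the genotypes, at 0.511 to 0.680 in J10 and 0.494 to 0.631 in lad, with a log2 difference of -0.07 ± 0.17 (SE). D17 over D10 was 0.395 to 1.35 in J10 and 3.98 to 7.52 in lad, with a log2 difference of 2.62 ± 0.64 (SE). That ratio rests on few counts, with 5, 8 and 13 for D10 in lad, and neither gene passed the test by itself. In a two-sided exact permutation test of the log2 ratios, p was 0.10 for 3 of these 4 ratios (0.133 after Benjamini-Hochberg adjustment over the 4) and 0.50 for D53 over D3. With 3 libraries against 3, 0.10 is the smallest p that the test can give.

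**Figure D4:**
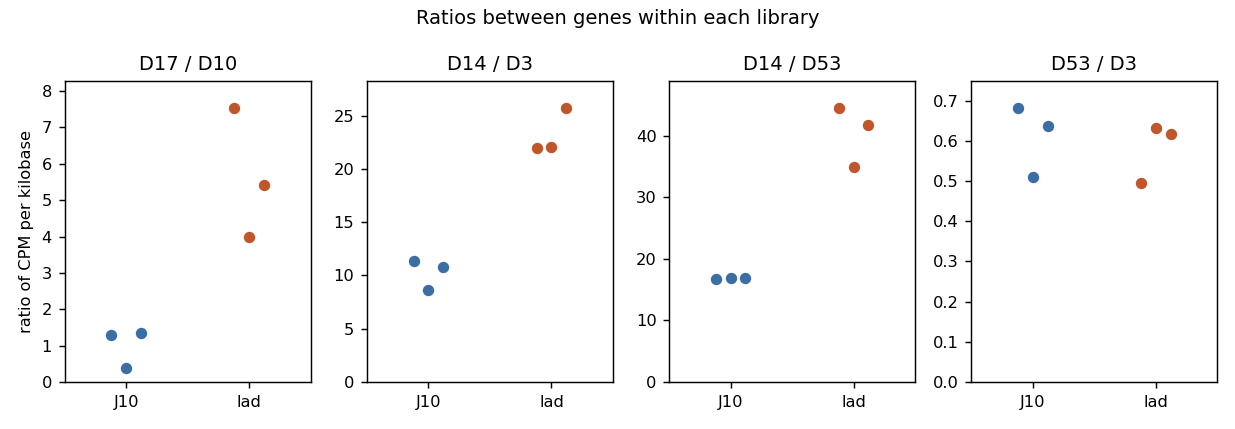
Ratios of CPM per kilobase between pairs of genes, with 1 point per library and axes from 0. D14 over D3 and D14 over D53 are higher in all 3 lad libraries, and D53 over D3 overlaps between the genotypes.

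Carotenoid oxygenase is the deposited description of D17, D10 and 12 other genes, a family of enzymes that cleave carotenoids and whose products include precursors of abscisic acid as well as of strigolactones. The description does not say which product each gene serves. Of these 12, 6 were tested, all 6 rose, and 6 were under the filter on low counts, 4 of them with 0 counts in all libraries. Over all tested genes 24.9% were called higher. At least LOC_Os08g28240 passed the filter only through its lad counts. LOC_Os07g05940 and LOC_Os01g38580 were under 1 CPM in every J10 library and above it in every lad library. The 6 tested therefore do not stand for the family. LOC_Os12g44310, which had the highest CPM of the 12, rose from 38.4 ± 3.003 to 55.0 ± 2.45 CPM (SD, n = 3; log2 change 0.52 ± 0.11 SE, adjusted p = 0.00246). LOC_Os12g42280 rose from 1.121 ± 0.299 to 24.3 ± 6.80 CPM (log2 change 4.43 ± 0.27 SE, adjusted p = 1.05e-06).

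Other members of the family stood low in J10. LOC_Os03g44380 measured 2.37, 2.35 and 2.43 CPM in J10 and 6.27, 6.36 and 15.7 CPM in lad (adjusted p = 0.00135). LOC_Os07g05940 measured 0.411, 0.0523 and 0.648 CPM in J10 and 4.60, 3.03 and 24.5 CPM in lad, a log2 change of 4.84 ± 0.90 (SE; adjusted p = 0.00146). Lad replicate 3 was the highest library for both, and without it the log2 change was 1.40 and 3.35. LOC_Os01g38580 rose from 0.767 ± 0.246 to 3.10 ± 1.21 CPM (SD, n = 3; adjusted p = 0.00333). LOC_Os08g28240 had 0 counts in J10 and 43 in lad, which is at least 14.98-fold higher when 3 counts in all are assumed for J10, a bound for counting error only (adjusted p = 0.00137). D10 was thus the only tested gene of this description with a lower level in lad, on a change that did not pass. Low genes can pass the filter through the genotype where they are higher, so this contrast is a description only.

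Genes described by DUF4033 were listed together with beta-carotene isomerase, the activity of D27, and not as a step before it. Genes described as squalene/phytoene synthase were listed too. The description covers phytoene synthases, the first committed step of carotenoid synthesis, and squalene synthases, that of sterols, which are not upstream of strigolactones. It does not say which enzyme each gene encodes, so calls in this list cannot be read as changes upstream of the pathway. Of 3 DUF4033 genes 1 was tested, LOC_Os05g04070, with 0.507 ± 0.101 CPM in J10 and 0.743 ± 0.181 CPM in lad (SD, n = 3; adjusted p = 0.372). Of 6 squalene/phytoene synthase genes 2 rose, 1 fell and 3 did not pass, with a median log2 change of 0.08 against 0.02 for all tested genes. These counts are near the shares over all tested genes, of which 24.9% were called higher and 20.3% lower. LOC_Os09g38320 measured 1.75, 0.732 and 0.702 CPM in J10 and 5.19, 10.9 and 19.5 CPM in lad (log2 change 3.47 ± 0.51 SE, adjusted p = 0.000332). LOC_Os07g10130 rose from 17.1 ± 1.16 to 24.6 ± 2.96 CPM (adjusted p = 0.0102), a call lost without J10 replicate 3 or lad replicate 1 (adjusted p up to 0.0721, edgeR quasi-likelihood). LOC_Os03g59040, with the highest CPM of the 6, fell from 133 ± 5.72 to 95.03 ± 5.38 CPM (SD, n = 3; adjusted p = 0.00271).

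A further 15 loci were set as neighbours of the pathway from general knowledge, and the table gives domains at most, so they are named by locus. Of 11 tested, 3 rose, 1 fell and 7 did not pass, and the other 4 had 0 counts in all libraries. The calls are near or below the background of 24.9% called higher and 45.2% called in either direction, and the median log2 change was 0.59 against 0.02 for all tested genes. Among 6 cytochrome P450 loci, LOC_Os06g36920 (chromosome 6) was the only one above 2 CPM on average. It measured 31.0, 16.6 and 28.4 CPM in J10 and 9.20, 10.3 and 9.64 CPM in lad. All lad libraries stood below all J10 libraries, with a log2 change of -1.38 ± 0.22 (SE; adjusted p = 0.000550). LOC_Os03g15680, in the deposited GRAS family of transcription regulators, rose from 1.16 ± 0.501 to 3.21 ± 0.671 CPM (SD, n = 3; adjusted p = 0.0115). LOC_Os08g15230, without a description, rose from 30.5 ± 4.48 to 41.5 ± 4.01 CPM (adjusted p = 0.0207), a call lost without J10 replicate 2 or 3 or lad replicate 3 (adjusted p up to 0.0812, edgeR quasi-likelihood). The third that rose was LOC_Os12g01360, given beside D53. Reads of these loci may not be separable, so this rise may not be independent of that of D53.

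**Figure D5:**
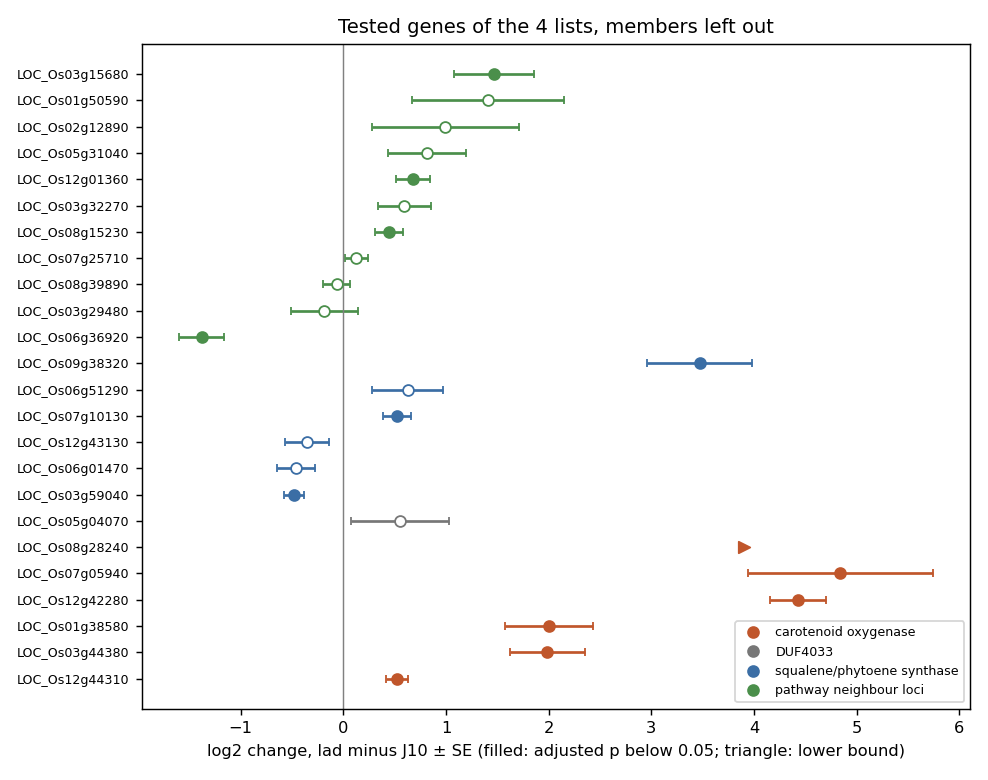
Log2 change (lad minus J10) ± SE of the 24 tested genes in the 4 lists, with D17 and D10 left out; filled points have an adjusted p below 0.05 and the triangle marks the lower bound for LOC_Os08g28240, which had 0 counts in J10. All 6 carotenoid oxygenase genes lie to the right of 0, the 1 tested DUF4033 gene does too without passing the test, and the other 2 lists lie on both sides.

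Genes with patterns most like those of the members were ranked by Pearson's r of log2 CPM over the 6 libraries, among 9369 described genes with a mean of at least 5 CPM. Since the genotypes differ at so many genes, such correlations mostly follow genotype and are a description only. For D14, 1914 genes had an r of at least 0.9, led by the tubulin gene LOC_Os03g11970 (r = 0.999; 7.59 ± 1.504 CPM in J10 and 32.6 ± 4.83 in lad) and the ABC-2 type transporter gene LOC_Os03g17350. For D3 the leading genes were LOC_Os09g07900, with a HECT domain, and LOC_Os01g52640, with WD40 repeats (r = 0.998 for both). D53 was followed most closely by LOC_Os03g20180, with a YTH domain (r = 0.997), and the copper amine oxidase gene LOC_Os07g38440 (r = 0.996). D17 and D10, at few counts, had 301 and 464 such genes, led by LOC_Os07g26700 (mitochondrial pyruvate carrier) and LOC_Os09g12770 (homeobox-like) for D17, and by LOC_Os12g31830 (carbon-nitrogen hydrolase) and LOC_Os07g42180 (armadillo-type fold) for D10.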

How the data were processed

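For the 6 root tip libraries the authors deposited 1 table with a read count for each gene, locus coordinates, lengths and domain descriptions. The values are whole numbers whose totals differ between columns, and they were treated as raw counts. Bowtie 0.12.2 is named in the submitters' processing notes, as are mm8 and mm9, mouse builds that cannot give rice loci. Not given in the sources used here are the counter, its strand setting, the rice build and the annotation release; coordinates are as deposited, with no build. Per the labels' protocols, total RNA came from Trizol extraction and the library kit was TruSeq RNA.

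Differences were tested in R 4.3.3 with edgeR 4.0.16, after its expression filter by genotype and TMM scaling, by a two-sided quasi-likelihood test. Genotype was the only term, all 22624 genes kept entered the fit, and p-values were adjusted over them by the Benjamini-Hochberg method. Standard errors are the absolute log2 change over the square root of F. Members, lists and tests were chosen with earlier results of these data known. All 6 listed loci were to be named, with every listed relative past the threshold (or the most abundant one) and the 2 most alike described genes per member. The procedure was tested on simulated data. Alternatives were other scalings and filters, DESeq2 1.42.0, the replicate number as a block, each library left out, and, chosen after seeing the data, D53 and D17 summed with a locus that may share reads. Within each genotype all pairs of libraries differed beyond counting noise (lowest chi-square over its degrees of freedom 9.44), so none was merged. The reads carry no stated molecular identifiers and may repeat molecules, so bounds cover counting error only. RefSeq names matched 4 of the 6 member symbols, and 0 table identifiers. No sequences of the members were used here.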

Additional observations from a re-analysis of the deposited data

How the results depend on the processing

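D14 and D3 were called higher under all 13 alternatives, with log2 changes of 1.80 to 2.05 and 0.64 to 0.84. D53 kept its direction in all 14 and its call in all but 1; with a library left out it ranged from 0.55 to 0.81, and the call was lost without J10 replicate 3. D10 stayed lower in all 13 alternatives. It passed with DESeq2's size factors (-1.26, adjusted p = 0.0491) and upper-quartile factors (-1.31, adjusted p = 0.0400, edgeR quasi-likelihood). It also passed with a filter of 1 CPM in 3 libraries (-1.24, adjusted p = 0.0424, edgeR quasi-likelihood), which it met only through its J10 libraries. Nor would D10 have met the filter of the main fit on its lad counts alone. It did not pass with library totals (-1.16, adjusted p = 0.0681, edgeR quasi-likelihood), no filter, the replicate block or DESeq2's Wald test. Nor did it pass with a library left out, where it ranged from -1.60 to -0.97. D17 stayed higher in all 14 and passed with the replicate block (1.19, adjusted p = 0.0441, edgeR quasi-likelihood). With a library left out it ranged from 0.73 to 1.37. Its counts summed with those of LOC_Os04g46480 also passed (0.87, adjusted p = 0.0236, edgeR quasi-likelihood). That locus held more counts than D17 in every library and was called higher alone (adjusted p = 0.0298, edgeR quasi-likelihood). The sum therefore mostly follows LOC_Os04g46480 and says little about D17. The causes of these moves were not tested. The block called 10648 genes against 10229 without it and changed no other member's call. The labels do not say that replicate numbers pair the libraries, and deviations of same-numbered libraries correlated at 0.06, 0.13 and -0.03, with lad replicate 3 closest to J10 replicate 1. Over all genes 7804 to 11191 were called with a library left out, among 22993 to 23167 tested. In the main fit 10229 of 22624 were called (45.2%). Of the listed relatives 11 to 15 were called with a library left out, against 13 of 24 tested in the main fit. Depth limits D17 and D10, with 26 to 145 counts per genotype. A p that misses the threshold there does not show equal levels.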
